A study of Mus musculus with 12 samples.

Results

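The 41 genes described here belong to the response of the endoplasmic reticulum (ER) to unfolded protein and to the ATF4 program of amino acid and stress signalling. They were chosen by name, through the gene symbols that the platform annotation gives for the rows of the table, and Asns was left out. Of the 43 rows with 1 symbol that is a member, the brightest for each gene was used. A row that names both Gm6756 and Phgdh was not used. All 41 genes had a row, out of 19938 genes with 1 symbol. Liver RNA came from 6 male mice with the K289R knock-in of LRH-1 and from 6 male wild-type (WT) mice, all on the C57BL/6J background, fasted for 24 h and then refed for 6 h. LRH-1 is a nuclear receptor encoded by Nr5a2 that acts in bile acid, cholesterol and glucose metabolism, and the K289R change replaces a lysine to which the small protein SUMO can be attached. The labels give no age, name no Cre driver or transgene, and call each array a separate biological replicate. The genotype label of WT 4 holds other text after WT, and that array was placed by its title and source name, which both give WT. Arrays are named below by genotype and replicate number, and the labels do not say whether a shared number pairs mice.

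Secreted and membrane proteins fold in the ER, and when folding falls behind, the membrane sensors IRE1 (Ern1), PERK (Eif2ak3) and ATF6 (Atf6) start the unfolded protein response. IRE1 splices the Xbp1 transcript so that it encodes an active transcription factor, PERK slows translation through eIF2 and favours translation of ATF4, and ATF6 is cut to release a transcription factor. In hepatocytes, which secrete most plasma proteins, XBP1 is also known for its part in lipid synthesis and in the response to feeding.

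The ER stress response element, the sequence to which ATF6 and XBP1 are known to bind next to NF-Y, links many of these genes, and its exact copies are shown because both a called gene and most chaperones carry one. It was searched as CCAAT and CCACG with any 9 bases between them, on both strands, from 250 bases before to 50 bases after the gene starts of RefSeq (build GRCm38.p6). Of the 41 members 37 had a promoter in that table, and 10 of them held the element, against 37 of all 27025 genes with a promoter (0.137%). The matches lay 44 to 220 bases upstream of the start. Each is written in the direction of the element, with its fixed letters in capitals.
Alg12 and Creld2: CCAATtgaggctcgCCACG
Calr: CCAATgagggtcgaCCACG
Canx: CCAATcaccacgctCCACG
Derl3: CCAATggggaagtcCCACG
Dnajc3: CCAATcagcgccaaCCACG
Hsp90b1 (nearer the start): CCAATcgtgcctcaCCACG
Hsp90b1 (farther from the start): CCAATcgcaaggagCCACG
Hspa5: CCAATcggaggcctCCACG
Pdia6: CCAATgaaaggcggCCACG
Syvn1: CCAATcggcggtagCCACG

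Alg12 and Creld2 are read in opposite directions on chromosome 15, with 327 bases between their starts, and 1 copy of the element lies between them. The stretch of 190 bases before the start of Creld2 (chr15:88819456-88819645, GRCm38.p6, + strand) shows that copy, reversed on this strand, in capitals.
Creld2: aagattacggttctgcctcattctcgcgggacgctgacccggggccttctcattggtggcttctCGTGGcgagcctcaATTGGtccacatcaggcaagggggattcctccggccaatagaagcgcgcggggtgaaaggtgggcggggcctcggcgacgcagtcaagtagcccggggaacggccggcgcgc

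The promoter of Hspa5, the ER chaperone BiP and the usual readout of this response, held 1 exact copy in the stretch chr2:34771880-34772069 (GRCm38.p6, + strand), with capitals as above.
Hspa5: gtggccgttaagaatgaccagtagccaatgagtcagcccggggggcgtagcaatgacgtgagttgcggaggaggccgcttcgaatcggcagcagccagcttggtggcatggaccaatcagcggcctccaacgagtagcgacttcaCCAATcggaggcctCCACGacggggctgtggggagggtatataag
The 250 bases before the start of Xbp1 (chr11:5520391-5520640, GRCm38.p6, + strand) are shown because Xbp1 had the smallest p of all members. None of the searched motifs matched there, so no letter is capitalised.
Xbp1: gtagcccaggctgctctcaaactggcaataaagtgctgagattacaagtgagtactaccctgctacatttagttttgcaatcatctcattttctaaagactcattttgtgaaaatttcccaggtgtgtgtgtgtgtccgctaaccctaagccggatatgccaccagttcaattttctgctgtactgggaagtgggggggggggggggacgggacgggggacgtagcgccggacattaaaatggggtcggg

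A shorter form of the element, ATTGG and CCACG with any 1 base between them, was searched on both strands. It matched in Herpud1 and in Dnajb11, and in 12 of all 27025 genes with a promoter (0.0444%). The C/EBP-ATF response element, through which ATF4 is known to act, was searched as TGATGCAA on both strands. It matched in 5 of the 37 members with a promoter (Atf3, Chac1, Herpud1, Nupr1 and Vldlr) and in 279 of all 27025 genes with a promoter (1.03%). Sites of different motifs overlapped in 0 cases among the members. The Vldlr match is shown because Vldlr was the member closest to the threshold without passing it (chr19:27216780-27216867, GRCm38.p6, + strand, the match on the reverse strand in capitals).
Vldlr: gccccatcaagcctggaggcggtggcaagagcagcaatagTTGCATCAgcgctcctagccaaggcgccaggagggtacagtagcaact

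Values are the deposited linear intensities of 1 probe set a gene, and differences are K289R minus WT on the log2 scale, tested with limma over all 19938 genes at a Benjamini-Hochberg adjusted p under 0.05. Levels of different genes are not compared, because probe sets differ in brightness. In whole liver, fewer cells of a type and less RNA per cell cannot be told apart. Hepatocyte markers such as albumin were bright on every array, with a list mean of 11.99 to 12.05 in K289R and 12.03 to 12.08 in WT on the log2 scale. Nr5a2 averaged 324 ± 18.4 in K289R and 303 ± 27.1 in WT (SD, n = 6 each; log2 difference 0.10, adjusted p = 0.582), a level that does not check the point mutation. Acinar and acute phase markers set 4 arrays apart. All 11 measured pancreatic acinar markers were highest on K289R 1 or K289R 3, whose list means were 8.87 and 9.57, against 4.36 to 4.64 on the other K289R arrays and 4.45 to 4.65 in WT. The list of 14 acute phase genes averaged 9.60 on WT 1 and 9.69 on WT 3, and lay between 7.86 and 8.15 on WT 2, 4, 5 and 6 and between 7.81 and 8.68 in K289R. Results that rest on the 4 arrays set apart by acinar or acute phase markers are given with and without them. The Kupffer cell and macrophage list averaged 7.36 on K289R 4. It averaged 6.46 to 6.83 on the other K289R arrays and 6.38 to 6.96 in WT. K289R 4 was left out only in the fits that dropped 1 array.

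Xbp1 and Alg12 were lower in K289R livers, and no member was called higher. Of the 41 members 2 were called, both lower, which is 4.88% of the members. Among all 19938 genes 0.572% were called, 0.0903% were called lower and 0.481% were called higher. The median log2 difference of the members was -0.02, against -0.01 for all genes, so the members' median lay close to that of all genes. At an unadjusted p under 0.05 there were 10 members, 5 higher and 5 lower, beside 12% of all genes (6.42% higher and 5.61% lower). That split over all genes depended on the scaling: it was 1280 higher and 1119 lower as deposited, and 1920 higher and 627 lower with array medians made equal, where the members were 5 higher and 4 lower. Arrays of the groups did not overlap for 3 members (Xbp1 and Alg12 lower, Vldlr higher), against 1.24% of all genes (0.391% lower and 0.853% higher).

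**Figure D1:**
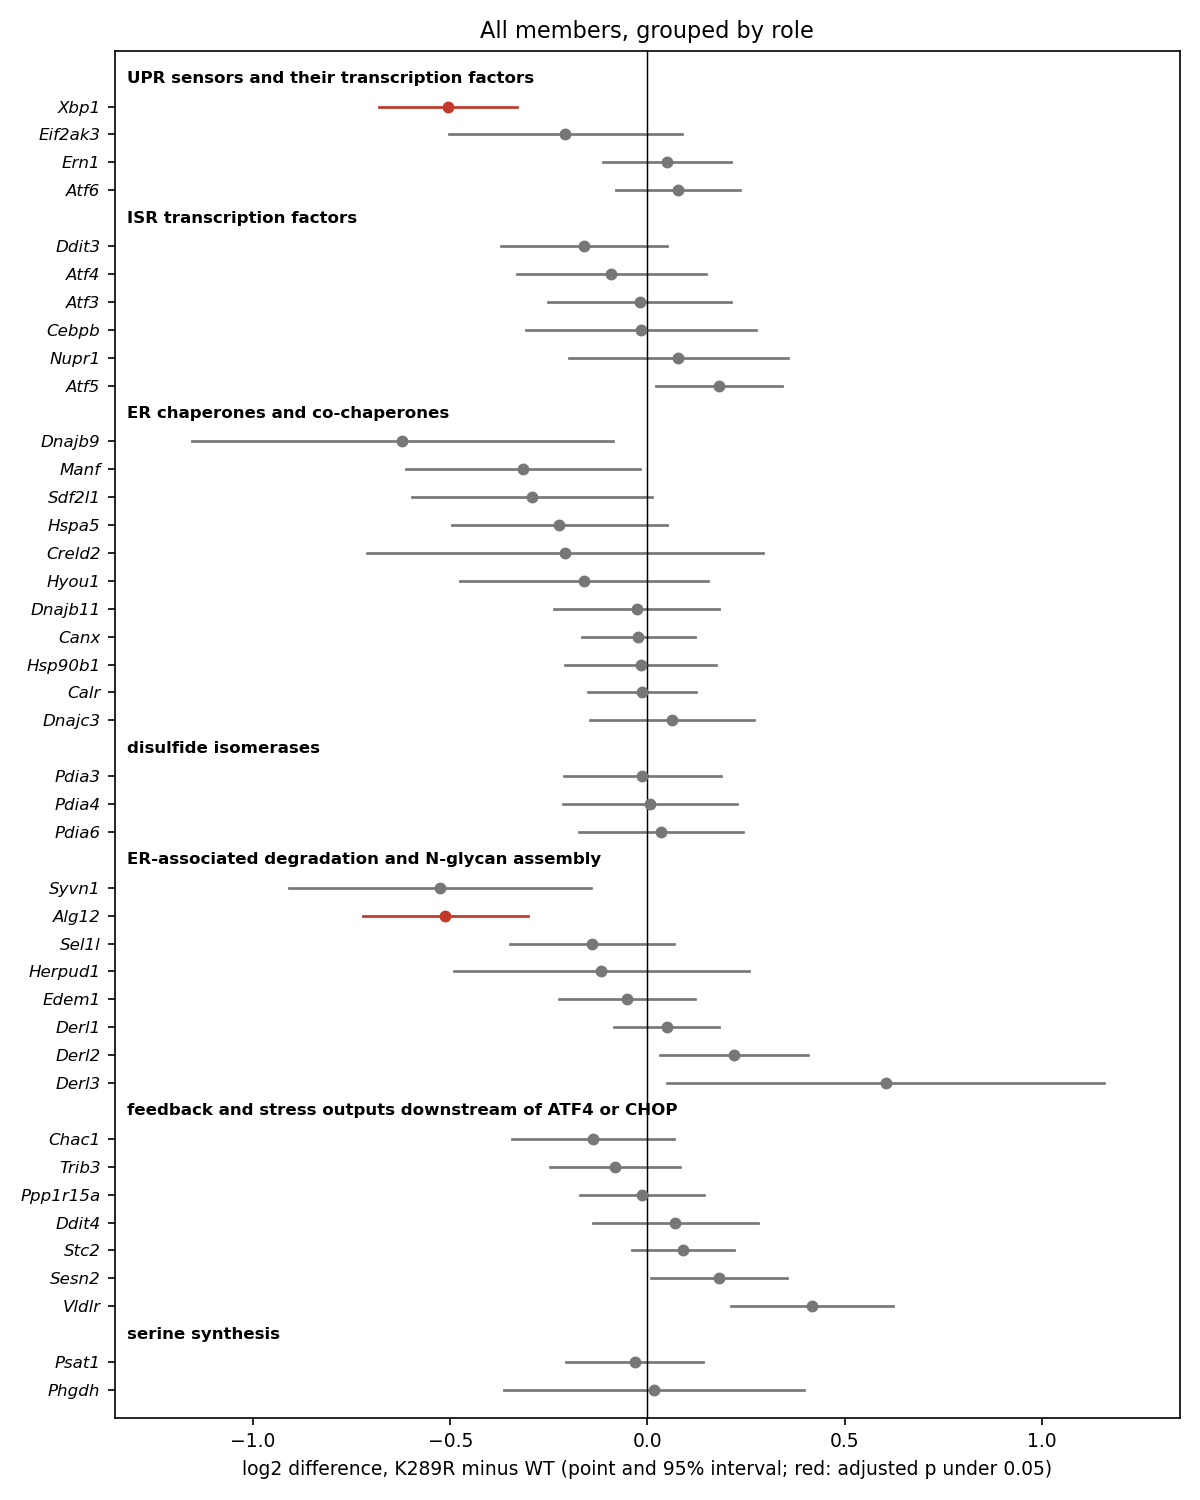
Log2 difference (K289R minus WT, horizontal axis) of all 41 members grouped by role, with points for the estimate and lines for the 95% interval from limma over 6 K289R and 6 WT arrays; red marks an adjusted p under 0.05. Xbp1 and Alg12 are the red members, at -0.51 each, and most other intervals cross 0.

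Among the sensors and their transcription factors, Xbp1 fell and the 3 sensor genes were not called. Xbp1, the transcription factor that IRE1 activates by splicing, had intensities of 806, 898, 808, 832, 834 and 909 on arrays K289R 1 to 6, against 1305, 1173, 1412, 960, 1188 and 1228 on arrays WT 1 to 6. Every K289R array lay below every WT array, and the K289R arrays were close together. The means were 848 ± 45.0 in K289R and 1211 ± 151 in WT (SD, n = 6 each), a log2 difference of -0.51 (SE 0.08, 95% interval -0.68 to -0.33) or 1.42-fold lower (adjusted p = 0.00548, probe set 10374035). The table gives 1 value for the gene, so spliced and unspliced Xbp1 were not told apart. The call held in each of the 12 fits that left out 1 array (adjusted p of 0.000815 to 0.0186), and without WT 4, the lowest WT array, the difference was -0.57. Without WT 1 and WT 3 the difference was -0.42 (adjusted p = 0.0368). It was -0.47 without K289R 1 and K289R 3 and -0.38 without all 4 arrays, where the gene was not called (adjusted p = 0.0560 and 0.189). The arrays with acinar transcripts, K289R 1 and K289R 3, had the lowest Xbp1 values of all 12.

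Ern1, which encodes IRE1, the kinase and nuclease that splices Xbp1, ranged from 293 to 367 around a median of 352 in K289R and from 300 to 356 around a median of 324 in WT. These ranges overlapped almost fully, and the log2 difference was 0.05 (95% interval -0.11 to 0.21, adjusted p = 0.823). Eif2ak3, which encodes PERK, ranged from 49.7 to 76.7 (median 51.1) in K289R and from 50.8 to 90.5 (median 65.7) in WT. Its difference was -0.21 (95% interval -0.50 to 0.09, adjusted p = 0.562), and -0.09 without WT 1 and WT 3. Atf6 ranged from 222 to 247 (median 232) in K289R and from 200 to 260 (median 218) in WT, with a difference of 0.08 (adjusted p = 0.698).

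**Figure D2:**
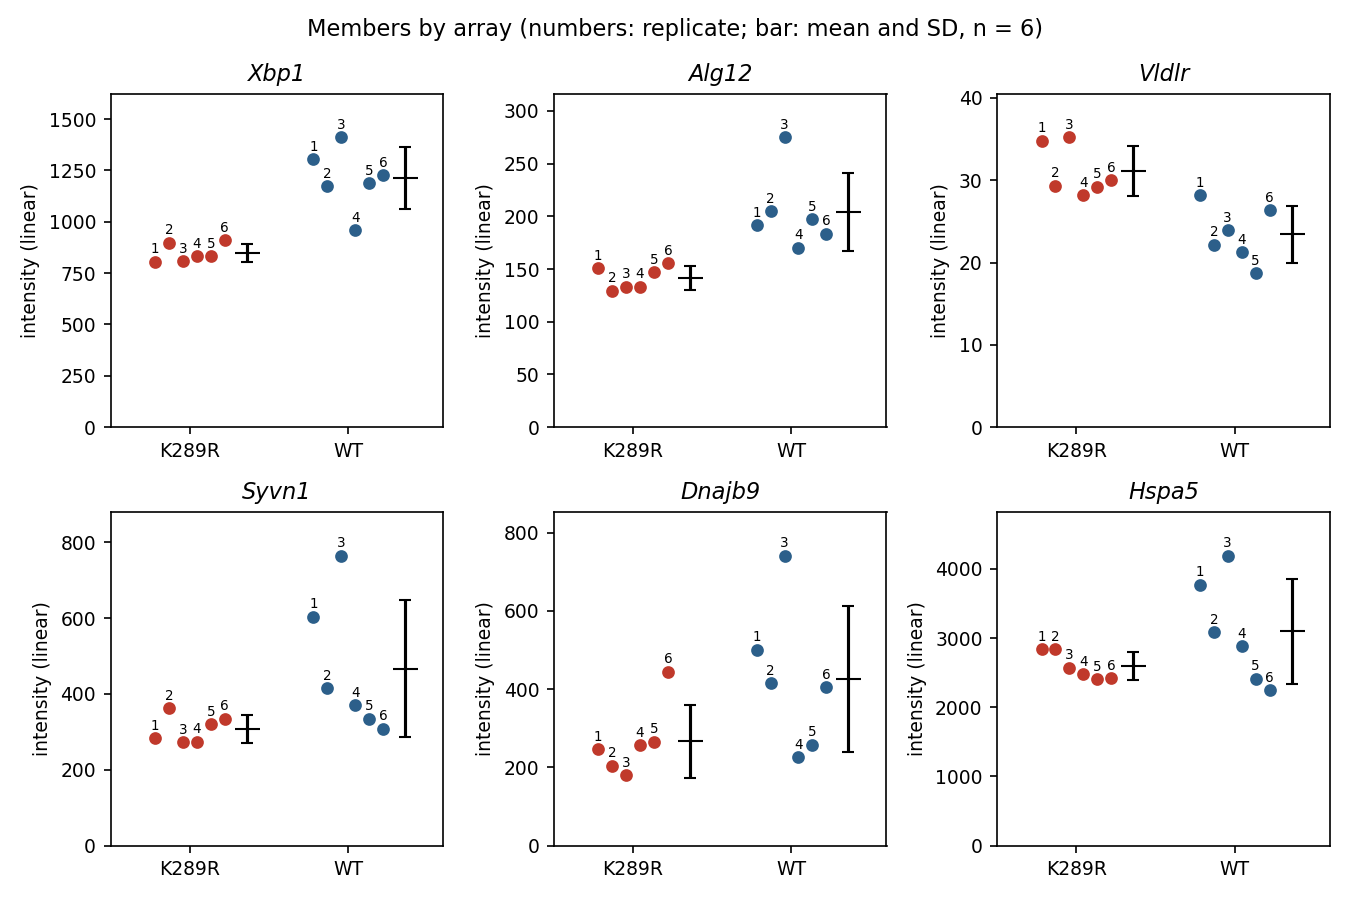
Linear intensity (vertical axes, from 0) of 6 members on each array, K289R left of WT, with replicate numbers beside the points and the mean with its SD (n = 6) as a bar. Xbp1 and Alg12 do not overlap between the groups, whereas Syvn1, Dnajb9 and Hspa5 overlap and have their highest values on WT 3.

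Of the 8 genes of ER-associated degradation and N-glycan assembly, Alg12 fell and the other 7 were not called. Alg12, the mannosyltransferase that adds a mannose to the lipid-linked glycan precursor in the ER, had intensities of 151, 129, 133, 133, 147 and 156 on arrays K289R 1 to 6. On arrays WT 1 to 6 it had 192, 205, 275, 170, 198 and 184. The groups did not overlap, and WT 3 was the highest array. The means were 142 ± 11.0 in K289R and 204 ± 37.0 in WT (SD, n = 6 each), a log2 difference of -0.51 (SE 0.10, 95% interval -0.72 to -0.30) or 1.43-fold lower (adjusted p = 0.0218, probe set 10431300). Without K289R 2, K289R 3, K289R 4 or WT 2 the difference stayed between -0.51 and -0.49, but the adjusted p of 0.0583 to 0.0647 no longer passed. Without K289R 1 and K289R 3 together it was -0.51 (adjusted p = 0.0917), and without WT 4, the lowest WT array, it was -0.56 (adjusted p = 0.0169). Without WT 1 and WT 3 it held, at -0.42 (adjusted p = 0.0368), and without all 4 arrays the same difference had an adjusted p = 0.122.

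Creld2, the secreted ER protein read from the other side of the shared promoter, did not separate the groups. It ranged from 575 to 1057 (median 728) in K289R and from 517 to 1725 (median 907) in WT, and the WT array at 1725 was WT 3. Its log2 difference was -0.21 (95% interval -0.71 to 0.29, adjusted p = 0.747), -0.01 without WT 3 alone and 0.08, the opposite sign, without WT 1 and WT 3. The intervals of the neighbours Alg12 and Creld2 overlap, and whether their differences differ was not tested.

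Syvn1, the ubiquitin ligase HRD1 of ER-associated degradation, ranged from 273 to 362 (median 302) in K289R and from 308 to 765 (median 394) in WT. K289R 1, K289R 3 and K289R 4 lay below every WT array, the other K289R arrays lay within the WT range, and WT 1 (604) and WT 3 (765) stood far above the other WT arrays. The log2 difference was -0.53 (95% interval -0.91 to -0.14), close to that of Alg12, with SDs of 36.9 in K289R and 180 in WT, and it was not called (adjusted p = 0.253). Without WT 1 and WT 3 it was -0.21. Sel1l, the partner of HRD1 in the same complex, had a difference of -0.14 (adjusted p = 0.581). Herpud1, which recruits ubiquilins to that complex, had -0.12, and Edem1, a lectin that hands over misfolded glycoproteins, had -0.05.

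The derlins, membrane proteins of the same export route, had positive differences. Derl3 ranged from 535 to 1155 (median 873) in K289R and from 282 to 880 (median 739) in WT, a log2 difference of 0.60 (95% interval 0.05 to 1.16, adjusted p = 0.375). WT 2 (282) and WT 3 (334) were the lowest arrays, so that the array highest for most chaperones was among the lowest for Derl3. Without WT 2 the Derl3 difference was 0.40, and without WT 3 it was 0.45. Derl2 ranged from 398 to 560 (median 433) in K289R and from 345 to 450 (median 382) in WT, with a difference of 0.22 (adjusted p = 0.339). Its highest array was K289R 3, which carries acinar transcripts, and the difference was 0.14 without K289R 1 and K289R 3. Derl1 had a difference of 0.05 (adjusted p = 0.779).

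None of the 11 ER chaperones and co-chaperones and none of the 3 protein disulfide isomerases was called by limma. An unadjusted p under 0.05 was found for 2 of the 11 and 0 of the 3, beside 12% of all genes. The chaperones' median log2 difference was -0.16, and 10 of 11 had a negative difference, beside 54.0% of all genes. That count was 6 of 11 with array medians made equal, where 8194 of all 19938 genes had a negative difference. It was 5 of 11 without WT 1 and WT 3, where 10639 of all 19938 genes had one. Without WT 3 alone the chaperones' median was -0.01. Hspa5 (BiP) ranged from 2411 to 2845 (median 2526) in K289R and from 2244 to 4195 (median 2986) in WT. The WT range enclosed the K289R range, with WT 1 (3774) and WT 3 (4195) above all other arrays. The means were 2596 ± 201 in K289R and 3100 ± 762 in WT (SD, n = 6 each), a log2 difference of -0.22 (95% interval -0.50 to 0.05, adjusted p = 0.506). Without WT 1 and WT 3 the difference was -0.03.

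Dnajb9 (ERdj4), a co-chaperone of BiP and a known target of spliced XBP1, had the most negative difference of any member. It ranged from 180 to 445 (median 252) in K289R and from 226 to 742 (median 411) in WT, and K289R 6 (445) lay above all WT arrays other than WT 1 (501) and WT 3 (742). The log2 difference was -0.62 (95% interval -1.16 to -0.09, adjusted p = 0.340), and -0.30 without WT 1 and WT 3. Manf, a small secreted ER protein that rises with ER stress, ranged from 165 to 221 (median 198) in K289R and from 186 to 368 (median 226) in WT. Its difference was -0.32 (adjusted p = 0.390), and -0.10 without WT 1 and WT 3. Sdf2l1, a partner of BiP complexes known to be induced by feeding in liver, ranged from 579 to 848 (median 630) in K289R and from 658 to 1307 (median 801) in WT. Its difference was -0.29 (adjusted p = 0.433), -0.16 without WT 3 and -0.13 without WT 1 and WT 3.

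The abundant folding factors had differences near 0. Hsp90b1 (GRP94) averaged 2935 ± 328 in K289R and 2972 ± 341 in WT (SD, n = 6 each), a log2 difference of -0.02 (95% interval -0.21 to 0.17). The lectin chaperones Calr and Canx had differences of -0.01 (95% interval -0.15 to 0.12) and -0.02 (95% interval -0.17 to 0.12). The disulfide isomerases Pdia3, Pdia4 and Pdia6 had -0.01, 0.01 and 0.04, with 95% intervals that lay between -0.21 and 0.24. For these genes the intervals leave out changes of the size seen for Xbp1. Hyou1 (GRP170), Dnajb11 (ERdj3) and Dnajc3 (p58IPK) had differences of -0.16, -0.03 and 0.06, none of them called. A second Pdia4 probe set, dimmer at 101 in K289R and 114 in WT, had a difference of -0.18 and was not called either, and the 2 Dnajc3 probe sets had the same mean values.

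Most folding genes had their highest value on the array WT 3. Of the 41 members 20 (48.8%) had their highest value of all 12 arrays on WT 3, including 10 of 11 chaperones and 3 of 3 disulfide isomerases, against 9.60% of all genes. The mean log2 level of the chaperones was 9.70 to 9.94 in K289R. In WT it was 10.11 on WT 1 and 10.45 on WT 3, and lay between 9.69 and 9.92 for the remaining 4. The spread between mice was larger in WT for 30 of 41 members (73.2%) and for all 11 chaperones, against 49.8% of all genes. Among chaperones the median SD of log2 values was 0.16 in K289R and 0.35 in WT. WT 1 and WT 3 were also the arrays with the highest acute phase level, at 9.60 and 9.69. The part of the acute phase level in the members' differences was not tested. The differences of Xbp1 and Alg12 were also called without WT 1 and WT 3, and not without all 4 arrays set apart. Skeletal muscle transcripts, which averaged 6.90 on WT 1 and 4.79 on WT 3, were high on WT 1 and not on WT 3. They averaged 5.86 on K289R 3 as well, above the 4.46 to 4.86 of the remaining 5 in K289R. Without K289R 3 alone Xbp1 had a difference of -0.49 (adjusted p = 0.0186) and Alg12 -0.50 (adjusted p = 0.0585).

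**Figure D3:**
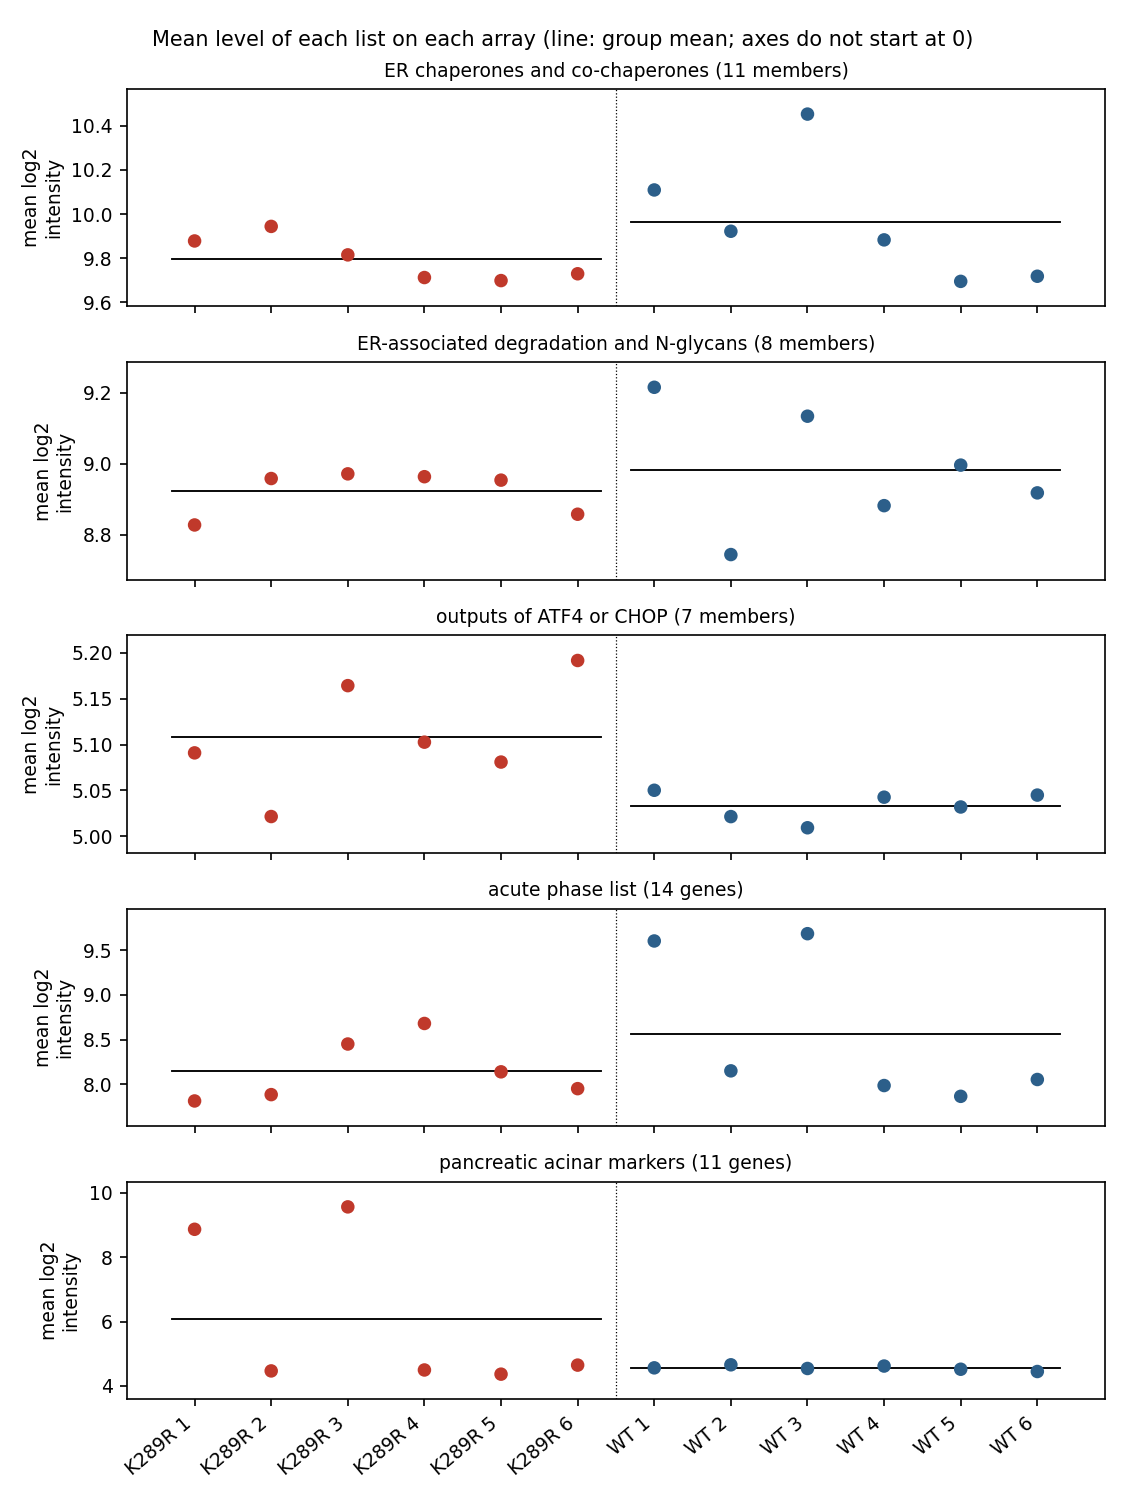
Mean log2 intensity (vertical axes, which do not start at 0) of 3 groups of members and of the acute phase and pancreatic acinar lists on each of 6 K289R arrays (left) and 6 WT arrays (right), with the group mean as a line. The chaperone mean is highest on WT 3 (10.45) and next on WT 1 (10.11), where the acute phase list is also highest.

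None of the 6 transcription factors of the ATF4 branch was called by limma. Of the 6 genes 1, Atf5, had an unadjusted p under 0.05, beside 12% of all genes. Atf4 ranged from 79.2 to 117 (median 89.8) in K289R and from 86.6 to 119 (median 101) in WT, with a log2 difference of -0.09 (95% interval -0.33 to 0.15, adjusted p = 0.770). ATF4 is regulated mainly through translation, so its transcript does not measure the protein. Ddit3, which encodes CHOP, the factor that ATF4 induces in lasting stress, ranged from 40.7 to 53.8 (median 47.4) in K289R and from 39.6 to 59.6 (median 54.7) in WT. Its difference was -0.16 (95% interval -0.37 to 0.05, adjusted p = 0.531). Atf5, a relative of ATF4 that CHOP and ATF4 induce, ranged from 291 to 362 (median 318) in K289R and from 262 to 322 (median 283) in WT, a difference of 0.18 (adjusted p = 0.359). Atf3, Cebpb and Nupr1, stress-induced regulators, had differences of -0.02, -0.02 and 0.08, each with an adjusted p above 0.8.

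None of the 7 feedback and stress outputs downstream of ATF4 or CHOP was called by limma, and their median log2 difference was 0.07. Of the 7 genes 2 had an unadjusted p under 0.05, beside 12% of all genes. Vldlr, the very low density lipoprotein receptor and a known ATF4 target in liver, came closest. It ranged from 28.2 to 35.3 (median 29.7) in K289R and from 18.7 to 28.2 (median 23.0) in WT. The groups did not overlap, by a margin within the rounding of these values, and 5 of 6 WT arrays lay below 26.8, the lowest median of any array, and no detection call was used. The log2 difference as measured was 0.42 (95% interval 0.21 to 0.62, adjusted p = 0.0680). Vldlr passed the threshold in some settings and missed it in others. The adjusted p was 0.0465 after quantile normalization, 0.0430 with equal array medians, 0.0370 with array weights and 0.0470 without WT 1 and WT 3. It was 0.0558 with a trended, robust variance model, 0.195 without all 4 arrays set apart, and 0.315 without K289R 1 and K289R 3, the highest arrays for Vldlr. With an offset of 16 added before the log the difference was 0.26 (adjusted p = 0.0836). Of the 12 fits that left out 1 array, Vldlr was called only in the one without WT 1 (adjusted p = 0.0271).

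Sesn2, a leucine sensor that restrains mTORC1, ranged from 34.1 to 41.9 (median 38.7) in K289R and from 30.1 to 39.2 (median 32.4) in WT, with a difference of 0.18 (adjusted p = 0.397). Trib3, a pseudokinase that restrains ATF4 and Akt, had a difference of -0.08 (95% interval -0.25 to 0.08), and Chac1, which degrades glutathione, had -0.14 (95% interval -0.34 to 0.07). Ppp1r15a (GADD34), which directs the phosphatase that reverses eIF2 phosphorylation, had -0.01 (95% interval -0.17 to 0.14). Ddit4 (REDD1), another restraint of mTORC1, and Stc2, a secreted glycoprotein, had 0.07 and 0.09. The serine synthesis enzymes Phgdh and Psat1 had 0.02 and -0.03, and Psat1, like Stc2, lay below the median of every array on all 12 arrays.

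Asns, the ATF4 target left out by the selection, is set beside these genes because it is a standard readout of the same branch. It averaged 779 ± 80.4 in K289R and 54.1 ± 15.2 in WT (SD, n = 6 each), a log2 difference of 3.89 (adjusted p = 5.32e-11). Of the ATF4 targets among the members, Trib3, Chac1, Ddit3 and Sesn2 had differences between -0.16 and 0.18 on the same arrays, and Vldlr had 0.42. The 18 other measured ATF4 targets of amino acid metabolism and transport, given below, ran from -0.22 to 0.64 (median 0.12). Of these 18 genes 2 were called higher, beside 0.481% of all genes. Trib3, Chac1, Ddit3 and Sesn2 were dim, with group means of 33.8 to 61.2, beside array medians of 26.8 to 29.2.

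**Figure D4:**
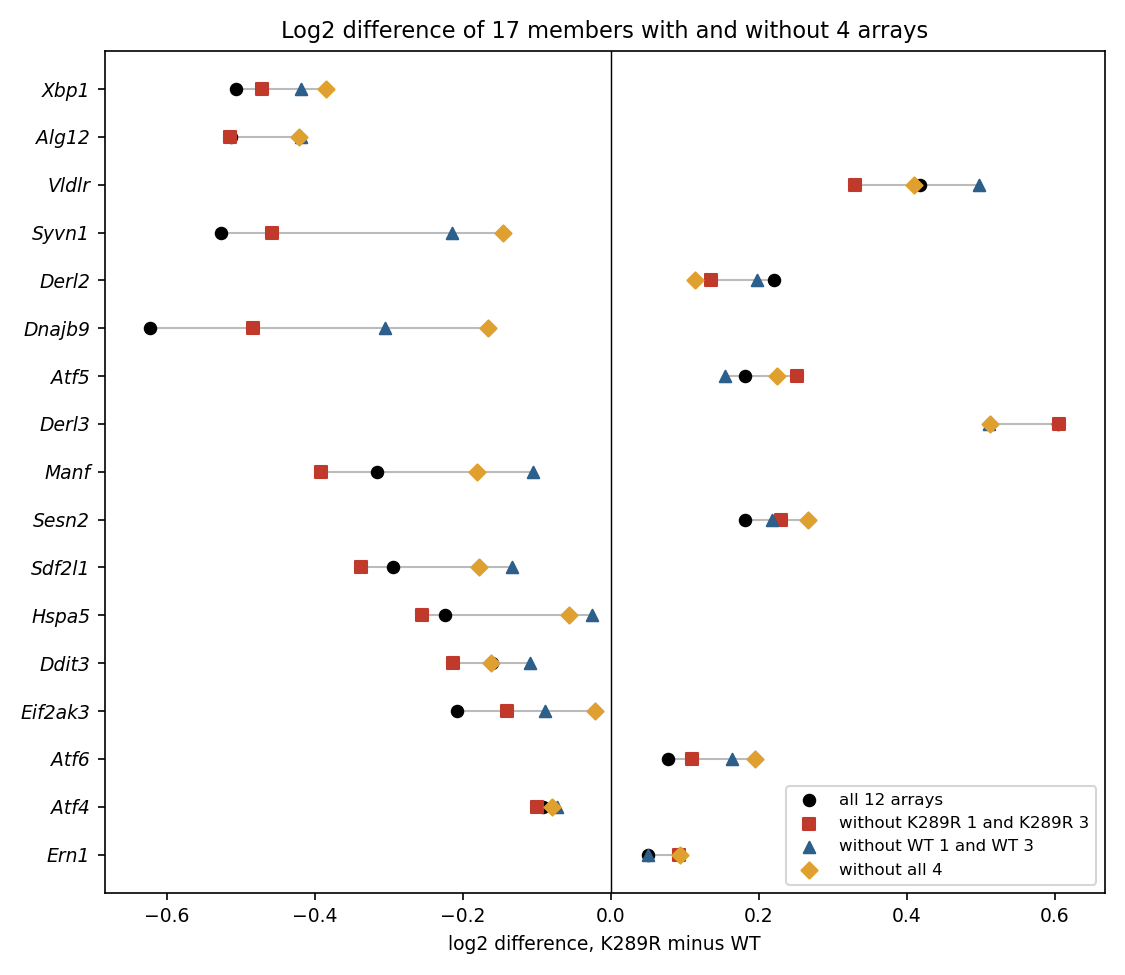
Log2 difference (K289R minus WT, horizontal axis) of 17 members with all 12 arrays (circles), without K289R 1 and K289R 3 (squares), without WT 1 and WT 3 (triangles) and without all 4 (diamonds). Xbp1 stays between -0.51 and -0.38, whereas Hspa5 goes to -0.03 without WT 1 and WT 3 and Syvn1 to -0.15 without all 4.

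Of 157 other genes of these pathways 2 were called (1.27%), both higher, against 0.572% of all genes called and 0.481% called higher, and the median log2 difference was -0.01. Both belong to the 18 measured ATF4 targets of amino acid metabolism and transport, whose median was 0.12. Of these 18 genes 7 had an unadjusted p under 0.05 by limma, 6 higher and 1 lower, beside 12% of all genes. Gpt2, an alanine aminotransferase, averaged 1210 ± 72.2 in K289R and 785 ± 128 in WT (log2 difference 0.64, adjusted p = 0.00367). Got1, the cytosolic aspartate aminotransferase, averaged 681 ± 33.4 in K289R and 481 ± 66.1 in WT (log2 difference 0.51, adjusted p = 0.00536). Of 12 measured genes that comprise aminoacyl-tRNA synthetases and the tRNA exporter Xpot, limma called 0, and 4 had an unadjusted p under 0.05 (12% of all genes did). Positive differences were found for 10 of the 12 (median 0.08), and for 9177 of all 19938 genes. In this list the leading genes were Xpot (0.25, adjusted p = 0.198) and Tars (0.23, adjusted p = 0.303). Among 13 other ATF4 or CHOP outputs the leading differences were those of Nfe2l2, the antioxidant regulator NRF2 (0.33, adjusted p = 0.111), and the translation repressor Eif4ebp1 (0.23, adjusted p = 0.246), with a list median of -0.03. Of these 13 genes 3 had an unadjusted p under 0.05 by limma, all higher, beside 12% of all genes.

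Limma called no gene in the ER lists nearest to Xbp1 and Alg12, where an unadjusted p under 0.05 was found for 2 degradation genes, 2 glycosylation genes, 1 translocon gene, 2 folding enzymes and 0 COPII genes, beside 12% of all genes. Among 20 other genes of ER-associated degradation (median -0.03), Edem2, a mannosidase that marks glycoproteins for degradation, averaged 178 ± 14.6 in K289R and 224 ± 22.2 in WT (log2 difference -0.34, adjusted p = 0.0792), and Ubxn4, which recruits the ATPase p97, had -0.26 (adjusted p = 0.277). In 20 genes of the oligosaccharyltransferase and other ALG enzymes (median -0.02), Alg2, a mannosyltransferase of an earlier step of the same glycan, had -0.50 (adjusted p = 0.214), whereas Alg14 had 0.33 (adjusted p = 0.223). The 16 translocon and signal peptide genes (median -0.04) were led by Sec62 (0.19, adjusted p = 0.346) and Spcs1 (0.11, adjusted p = 0.581). The 20 other folding enzymes (median 0.02) were led by Erp29 (0.20, adjusted p = 0.327) and Txndc12 (0.18, adjusted p = 0.375). The 16 genes listed for the COPII coat and for carrying cargo out of the ER had a median of -0.05. They were led by Mcfd2 (0.15, adjusted p = 0.464) and Preb (-0.18, adjusted p = 0.502).

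Among 7 ER-bound bZIP factors and their site proteases (median -0.15), Creb3l4 (-0.20, adjusted p = 0.190) and Atf6b (-0.24, adjusted p = 0.235) had the smallest p. Of the 9 genes for the eIF2 kinases, eIF2 and its phosphatase (median 0.01), Impact, an inhibitor of the amino acid sensor GCN2, had -0.21 (adjusted p = 0.414) and Eif2ak2 had 0.21 (adjusted p = 0.442). The 6 measured transcripts known to be cut by IRE1 had a median of 0.05, led by Pdgfrb (-0.16, adjusted p = 0.537) and Hgsnat (0.06, adjusted p = 0.693). By limma an unadjusted p under 0.05 was found for 2 of the 7 bZIP and protease genes, both lower. It was found for 1 of the 9 eIF2 genes and 0 of the 6 IRE1 transcripts, beside 12% of all genes.

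Set against the promoter motifs, the members that hold the ER stress response element had differences in both directions. Their 10 log2 differences ran from -0.53 (Syvn1) to 0.60 (Derl3) with a median of -0.02. Of the 10 genes 1, Alg12, was called, beside 0.572% of all genes. Of these 10 genes 8 were highest on WT 3, the exceptions being Canx and Derl3. So were 20 of all 41 members and 10 of the 11 chaperones. Dnajb9, Sdf2l1, Pdia3 and Pdia4, whose promoters held no match, were also highest on WT 3. The 5 members with the C/EBP-ATF response element had differences of -0.14 to 0.42, and none was called.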

How the data were processed

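Total RNA of 12 livers was hybridised to Affymetrix gene arrays, 1 per mouse, per the labels. The authors deposited linear intensities, 1 per probe set, made with Affymetrix Expression Console per the submitters' processing notes; for its version, summarization and background correction the sources used here give nothing. Array medians were 26.8 to 28.3 in K289R and 27.4 to 29.2 in WT, and making them equal changed the split of higher and lower genes given above. The number of arrays limits the precision.

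Of 35556 rows, 21789 had 1 symbol in the platform annotation. Where several probe sets shared a gene, the one brightest on average (log2) stood for it, which gave 19938 genes. The log2 intensities were compared with limma 3.58.1 (R 4.3.3; lmFit, eBayes, no covariates), two-sided, with Benjamini-Hochberg adjustment over all genes. On simulated data with noise drawn independently for each gene and array, the fit made 207 calls, of which 14 were false. It recovered 93 of 100 genes raised 1.5-fold and 100 of 100 genes lowered 2-fold. Shifts shared by many genes on an array, such as those of the acinar or acute phase lists, were not simulated. Members and lists were chosen with earlier results of these data known, and no list was tested. Of the list genes, 17 were not analysed here because no row with 1 symbol matched. Named in full were called members, the 12 of smallest p and the sensors, Atf4, Ddit3 and Hspa5, by lowest, median and highest value; in other lists, called genes or otherwise the leading ones by p. Alternatives were other normalizations, an offset, a filter on dim genes, other variance models, the replicate block and arrays left out. Promoter sequences are from RefSeq (GRCm38.p6). The replicate numbers name different mice, and whether mice of the same number share a day or litter was not tested. Deviations of same-numbered arrays correlated between -0.23 and 0.23. Figures were drawn with matplotlib 3.10.9.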

Additional observations from a re-analysis of the deposited data

Results flagged for a closer look

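Each member was checked for 1 array far from the other 5 of its group, in 82 groups of 6, and 4 (4.88%) had one, close to the 1 in 20 that chance gives. Cebpb, a C/EBP factor induced in acute phase and stress, measured 121 on K289R 3, against 82.8 to 86.6 on the other K289R arrays. It measured 142 on WT 1, and the remaining 5 in WT lay between 70.0 and 90.9. Sdf2l1 measured 1307 on WT 3, and the remaining 5 in WT lay between 658 and 803. Ddit3 was low on WT 6, at 39.6, with the remaining 5 in WT between 51.2 and 59.6.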

How the results depend on the processing

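Across 11 other settings and 12 fits that left out 1 array each, the 17 members named in full kept the sign of their difference wherever they were tested. Of all 41 members 19 changed sign in at least 1 of these fits, among them Creld2, at 0.08 without WT 1 and WT 3. All genes called numbered 114, and 75 without K289R 1 and K289R 3 or 65 without WT 1 and WT 3 as well; with 1 array left out they numbered 81 to 159. Members called numbered 2, and 0 without K289R 1 and K289R 3 or without all 4 arrays. They numbered 3 without WT 1 and WT 3, where 88 of all genes were called, and the cause was not tested. With 1 array left out they numbered 1 to 3. In each fit with 0 called, limma gave 7 members at an unadjusted p under 0.05. Of all 19938 genes, limma gave 741 lower and 1020 higher at that p without K289R 1 and K289R 3. Without all 4 arrays it gave 709 lower and 879 higher. With the replicate number as a block, 111 genes and 2 members were called, the members being Xbp1 (adjusted p = 0.0223) and Vldlr (adjusted p = 0.0357) in place of Alg12 (adjusted p = 0.0523). The labels do not say whether arrays of the same number share a litter or day, and this was not tested. Among K289R arrays 1 of 6 correlated best with its own number. The median difference of the members stayed between -0.05 and 0.04, and was above 0 with equal array medians (0.02), with array weights, without WT 1 and WT 3 (0.04) and without all 4 arrays. No detection call was used, so dim members such as Vldlr, Psat1, Stc2 and Phgdh are limited by signal over background.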
